A study of Mus musculus with 12 samples.

Results

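Nos2, Ptgs2 and Irg1 (now named Acod1) encode 3 enzymes that resting macrophages make little of and that lipopolysaccharide (LPS), a component of bacterial walls, induces. Chromatin at these genes was examined in 12 ATAC-seq libraries, each deposited as 1 list of peaks, stretches of DNA that the transposase cut more often than their surroundings. All peaks that overlapped 1 of 3 windows of the mouse build mm9 were taken. The Nos2 window was chr11:78700000-78810000, the Ptgs2 window chr1:151880000-152000000 and the Irg1 window chr14:103410000-103490000. Peaks of different libraries that shared at least 1 bp were chained into regions, which gave 42 regions from 327 peaks, out of 115231 regions from 886143 peaks in the genome. The Nos2 window held 10 regions, the Ptgs2 window 12 and the Irg1 window 20, numbered below in genome order. A region belongs to a window by position alone, and no region was tied to a gene. The lists carry no gene names, and no annotation of mm9 was used here, so no region is called a promoter, exon or intron. In RefSeq order, Lyrm9 and Lgals9 flank Nos2, and Pla2g4a and Pdc flank Ptgs2.

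The libraries came from bone marrow-derived macrophages of female C57BL/6 mice, either wild type (WT) or knockout (KO) for the long noncoding RNA lincRNA-EPS, grown for 9 days with 20% L929 supplement. Cells of both genotypes were taken after 0, 2 or 6 h with LPS at 100 ng/ml, with 2 libraries for each of the 6 groups and 50000 cells per transposition. The design asks how the loss of lincRNA-EPS bears on chromatin structure before and during the response to LPS. The labels do not say how the knockout allele was made, and do not give the origin of replicates 1 and 2 (separate mice or not), so the p-values here measure the spread between libraries, which may be technical. The 4 lists labelled 2 h carry 1 h in their internal peak names, and the labels were followed. Neither the knockout nor the macrophage identity was checked here, since the lists hold positions alone.

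Nos2 encodes inducible nitric oxide synthase, which makes nitric oxide from arginine, a gas toxic to microbes. Ptgs2 encodes cyclooxygenase-2, the inducible enzyme that commits arachidonic acid to prostaglandins. Irg1 encodes aconitate decarboxylase, a mitochondrial enzyme that makes itaconate from cis-aconitate. In macrophages, the receptor for LPS signals through NF-kB and interferon regulatory factors to these genes, and an open promoter or enhancer is a site where such factors can reach the DNA.

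The 250 bases before the annotated start were in the RefSeq promoter table for 2 of the 3 genes, Ptgs2 and Acod1, in build GRCm38.p6. They are shown because they lie next to the annotated start, and where transcription begins was not measured here. They are on another build than the peaks and were not matched to any region. Capitals mark every match to 7 motifs searched.
Ptgs2, chr1:150099781-150100030, plus strand: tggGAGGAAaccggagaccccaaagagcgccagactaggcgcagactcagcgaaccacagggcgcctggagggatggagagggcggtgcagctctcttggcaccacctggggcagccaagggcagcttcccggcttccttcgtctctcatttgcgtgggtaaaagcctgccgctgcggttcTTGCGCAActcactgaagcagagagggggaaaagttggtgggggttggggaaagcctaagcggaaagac
Acod1, chr14:103046762-103047011, plus strand: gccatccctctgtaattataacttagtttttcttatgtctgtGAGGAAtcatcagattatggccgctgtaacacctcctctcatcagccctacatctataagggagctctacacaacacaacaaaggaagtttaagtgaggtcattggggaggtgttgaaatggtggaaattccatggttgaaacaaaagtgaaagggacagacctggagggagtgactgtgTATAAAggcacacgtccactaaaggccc

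The motifs were the NF-kB consensus, ISRE (GAAANNGAAA), AP-1 (TGANTCA), C/EBP (TTGCNNAA), CRE (TGACGTCA) and the PU.1 core (GAGGAA) on both strands, and the TATA box (TATAAA) on the gene's strand. In the Ptgs2 sequence, TTGCGCAA, a C/EBP palindrome, lay 69 to 62 bases before the start and GAGGAA 247 to 242 bases before it. In the Acod1 sequence, TATAAA lay 28 to 23 bases before the start and GAGGAA 208 to 203 bases before it. Of the 32851 promoters in the table, 9.56% held the C/EBP word, 23.3% the PU.1 core and 7.59% the TATA box. The NF-kB consensus was in 7.25%, ISRE in 2.98%, AP-1 in 6.75% and CRE in 1.55%, and none of these words was in either sequence. G and C made up 61.6% of the Ptgs2 sequence and 44.4% of the Acod1 sequence, against a median of 52.4%. These matches describe letters only; no binding was measured.

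The lists held 54771 to 67128 peaks at 0 h, 70387 to 77100 at 2 h and 78766 to 91610 at 6 h, so the lists grew with time. Column 7 of a list is the fold of read coverage at the peak's summit over the local background, with 1 read added to both, and column 9 is the −log10 of its q-value. From the fold and the p-value, the coverage at the summit and the local background were recovered in reads for 100% of peaks within 0.001 of the −log10 p, against 0.55% with no read added. The added read makes a printed fold smaller than the plain ratio, most where the background is low. The coverage of the background, taken as the lowest local background in a library, was 1.43 to 2.51 reads at 0 h, 2.32 to 3.04 at 2 h and 2.17 to 3.35 at 6 h. By this measure the shallowest library was KO 0 h replicate 2 and the deepest KO 6 h replicate 1. Fewer open cells and less opening per cell cannot be told apart in such libraries.

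The 3 loci held open sites before LPS as well as after it. Every library called 21 of the 42 regions, 5 at Nos2, 4 at Ptgs2 and 12 at Irg1; the share over all regions was 37.2%. A further 17 regions were called in 2 to 11 libraries and 4 in 1 library (Nos2 region 7, Ptgs2 regions 1 and 6, and Irg1 region 16). The 21 shared regions had a median width of 840 bp and the other 21 a median of 375 bp. Sites appeared at Nos2 and Ptgs2 by the rule for a gained region, called in 4 of 4 libraries at the later time and in 0 of 4 at 0 h. By 6 h, 3 Nos2 regions, 4 Ptgs2 regions and 0 Irg1 regions were gained, and over all regions the share gained was 5.54%. None of these 7 was called in any 2 h library, a pattern that 52.4% of all regions gained by 6 h had. By 2 h, 0 of the 42 were gained, with 0.789% over all regions. None was lost by 6 h, with 0.127% lost over all regions, or by 2 h, with 0.00434%.

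**Figure D1:**
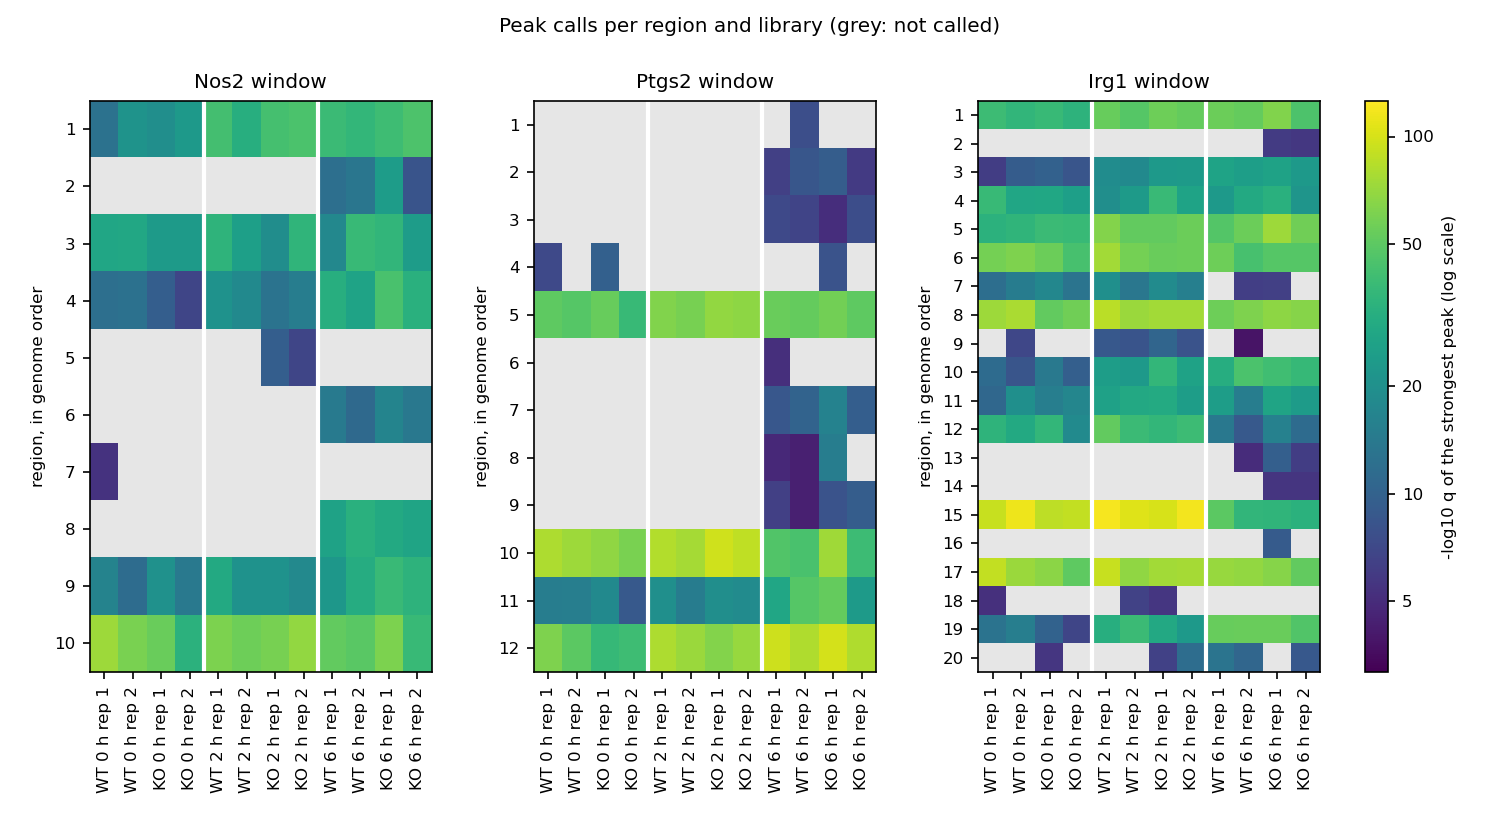
Calls of the 42 regions (rows, in genome order) in the 12 libraries (columns, by hours of LPS); colour is the −log10 q of the strongest peak on a log scale and grey is not called. The 3 gained Nos2 regions (2, 6 and 8) and the 4 gained Ptgs2 regions (2, 3, 7 and 9) are coloured in all 4 libraries at 6 h and grey in the other 8.

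At Nos2, the strongest new site was region 8, chr11:78786736-78787444. Its fold over local background at 6 h was 9.70 and 12.3 in the WT libraries and 9.78 and 10.1 in the KO libraries, with −log10 q of 26.3, 32.8, 29.4 and 27.02 in that order. All 4 values lay close together, and the other 8 libraries listed no peak there. Region 6, chr11:78763786-78764337, had folds of 6.78 and 6.52 in WT and 6.87 and 6.88 in KO at 6 h. Region 2, chr11:78702641-78703040, had folds of 5.15 and 5.56 in WT and 6.18 and 4.06 in KO. Its KO libraries were the highest and the lowest of the 4. The summits of regions 2 and 6 were 61.3 kb apart and those of regions 6 and 8 were 23.0 kb apart, so the 3 sites were spread over 84.3 kb of the window. With each list kept to its 54771 strongest peaks, or with the lists thinned to the lowest background coverage, regions 6 and 8 were still gained and region 2 was not.

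Among the 5 Nos2 regions called in every library, region 4, chr11:78733903-78734495, moved furthest in rank by −log10 q. Its −log10 q was 12.2 and 12.4 in the WT libraries and 9.50 and 6.87 in the KO libraries at 0 h. At 2 h it was 20.5 and 18.2 in WT and 12.8 and 15.02 in KO, and at 6 h 31.8 and 26.9 in WT and 43.8 and 32.6 in KO. The 3 times did not overlap. Because −log10 q grows with depth, each shared region was also placed by rank, as its percentile among the 42811 regions that all 12 libraries called. The percentile of region 4 by −log10 q went from 11.4 ± 2.86 at 0 h (SD over the 4 libraries of a time, WT and KO together, n = 4) to 17.5 ± 6.31 at 2 h and 54.9 ± 8.03 at 6 h, and the rise by 6 h passed the exact permutation test (adjusted p = 0.0141). Between 0 h and 2 h region 4 did not pass (exact adjusted p = 0.999). Its percentile by summit coverage rose from 19.5 ± 3.63 to 57.3 ± 6.87 (SD, n = 4; exact adjusted p = 0.0138). Summit coverage over the library's background had a mean of 12.8 ± 0.377 before LPS and 24.5 ± 2.12 after 6 h (SD, n = 4), a ratio of 1.91.

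Region 1 of the same window, chr11:78700176-78701011, rose in summit coverage as well, from percentile 27.2 ± 14.9 to 58.5 ± 9.26 (SD, n = 4; exact adjusted p = 0.0161), a call that was lost without KO 6 h replicate 2. Its percentile by −log10 q had a mean of 37.6 ± 18.9 before LPS and 64.5 ± 9.73 after 6 h (SD, n = 4), a difference that missed the threshold (exact adjusted p = 0.0575). Region 10, chr11:78798001-78798882, held the strongest Nos2 peak at rest, with −log10 q of 73.8, 59.8, 54.2 and 33.6 in the 4 libraries at 0 h (WT, then KO). At 6 h the values were 52.04, 49.2, 60.6 and 37.7, which overlapped those at 0 h. Its percentile differed by -10.03 points (exact adjusted p = 0.103). Region 9 lay 1.9 kb from it, with percentiles of 28.6 ± 12.9 at 0 h and 50.6 ± 11.7 at 6 h (SD, n = 4; exact adjusted p = 0.0981). Region 3 had percentiles of 53.00 ± 5.71 and 45.3 ± 15.4 (SD, n = 4; exact adjusted p = 0.593). So 1 of the 5 shared Nos2 regions rose by −log10 q and 2 rose by summit coverage.

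At Ptgs2, 3 of the 4 new sites had few reads. Region 2, chr1:151912681-151913190, had 6 h folds of 4.63 and 5.66 in WT and 5.13 and 4.73 in KO, on 14 to 22 reads at the summit. Region 3, chr1:151919752-151920121, had folds of 4.90 and 5.03 in WT and 3.91 and 5.36 in KO. Region 9, chr1:151982558-151983239, had folds of 4.63 and 4.09 in WT and 4.83 and 5.99 in KO. Regions 3 and 9 had 12 to 20 reads at the summit. The lowest summit coverage of any peak in the 12 lists was 8 to 12 reads, so these 3 regions stood near the limit of detection, and a weaker signal at 0 h would not have been listed. Region 7, chr1:151955380-151956217, had folds of 3.20 and 3.62 in WT and 3.55 and 3.66 in KO on more reads, 37 to 67. With each list kept to its 54771 strongest peaks 0 of the 4 Ptgs2 regions remained gained, and with the lists thinned to the lowest background coverage regions 2 and 7 did. Region 8, with folds of 4.09 and 3.95 in WT and 6 in KO 6 h replicate 1, missed the rule by KO 6 h replicate 2, and without that library it was gained.

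Region 5, chr1:151946552-151947564, was called in all libraries with a −log10 q of 50.2, 47.4, 53.7 and 37.9 at 0 h and 54.4, 52.8, 57.5 and 50.6 at 6 h (WT, then KO). Its percentile by −log10 q was 81.2 ± 4.12 and 80.2 ± 3.04 (SD, n = 4; exact adjusted p = 0.822). The fold over local background, by contrast, was 10.9, 10.6, 11.9 and 10.8 at 0 h and 6.75, 7.14, 6.25 and 6.88 at 6 h, with no overlap. Both terms of that fold were larger at 6 h. Summit coverage over the library's background had a mean of 34.6 ± 6.30 before LPS and 45.1 ± 4.73 after 6 h (SD, n = 4), and its percentile rose from 75.8 ± 5.03 to 92.03 ± 1.18 (SD, n = 4; exact adjusted p = 0.0106). Local background over the library's background was 2.66 ± 0.334 at 0 h, 2.91 ± 0.179 at 2 h and 6.33 ± 0.318 at 6 h (SD, n = 4), and its percentile rose by 35.9 points by 6 h (exact adjusted p = 0.00621). MACS2 takes the local background from the reads around a peak, so coverage around region 5 grew by more, 2.38 times, than at its summit, 1.30 times. Gained region 7 lay 8.6 kb from it and itself stood on a local background of 4.32 to 5.43 times the library's.

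The Ptgs2 regions at the far end of the window moved in opposite directions. Region 12, chr1:151998060-151999000, rose from percentile 80.5 ± 6.92 at 0 h to 96.9 ± 1.24 at 6 h by −log10 q (SD, n = 4; exact adjusted p = 0.0141). Its −log10 q was 61.6, 49.5, 37.4 and 40.2 at 0 h, 80.1, 72.8, 63.8 and 71.7 at 2 h and 95.4, 81.4, 99.02 and 80.8 at 6 h (WT, then KO). These values did not overlap between times, but −log10 q grows with depth. Its percentiles at 2 h, 84.5 to 90.6, overlapped those at 0 h, 71.3 to 87.1 (exact adjusted p = 0.891). Region 10, chr1:151990510-151991187, had the highest −log10 q of the window in every library at 0 h, 80.01, 73.8, 68.4 and 59.8, against 46.1, 43.9, 74.01 and 39.4 at 6 h (WT, then KO), where KO 6 h replicate 1 lay within the 0 h values and below all 4 at 2 h. It fell from percentile 94.6 ± 0.837 to 75.9 ± 8.33 (SD, n = 4; exact adjusted p = 0.0318). Its summit coverage over the library's background was 47.4 ± 6.47 at 0 h, 41.6 ± 3.62 at 2 h and 31.3 ± 2.05 at 6 h (SD, n = 4), a ratio of 0.66 between 6 h and 0 h, and the percentile of that coverage fell from 90.7 to 73.4 (exact adjusted p = 0.0199). The call of region 10 by −log10 q was lost without WT 2 h replicate 1, KO 0 h replicate 1 or KO 0 h replicate 2, and that by summit coverage without either KO 0 h library. The summits of regions 10 and 12 were 7.7 kb apart. Region 11 lay between them, with percentiles by −log10 q of 23.8 ± 8.40 and 59.3 ± 16.02 (SD, n = 4; exact adjusted p = 0.0643).

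At Irg1 no region was gained or lost by the rule, but coverage around its peaks rose. Regions 10, 11, 12 and 15 lay within 12.2 kb from the first summit to the last. Their local background at 0 h was 4.41 ± 0.546, 4.27 ± 0.538, 4.11 ± 0.715 and 4.49 ± 0.801 times the library's background (SD, n = 4). At 2 h it was 5.50 ± 0.556, 5.29 ± 0.614, 5.35 ± 0.690 and 5.26 ± 0.622 (SD, n = 4). At 6 h it was 12.7 ± 0.79, 14.3 ± 0.975, 16.8 ± 1.76 and 19.4 ± 2.40 (SD, n = 4). The ratios of 6 h to 0 h were 2.89, 3.36, 4.07 and 4.33, and the median ratio over all 42811 shared regions was 1.02. In each of the 4 regions, no library at 6 h overlapped any at 0 h or 2 h. Regions this close can share reads from which their local background is counted, so the 4 rises are not 4 independent measurements.

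**Figure D2:**
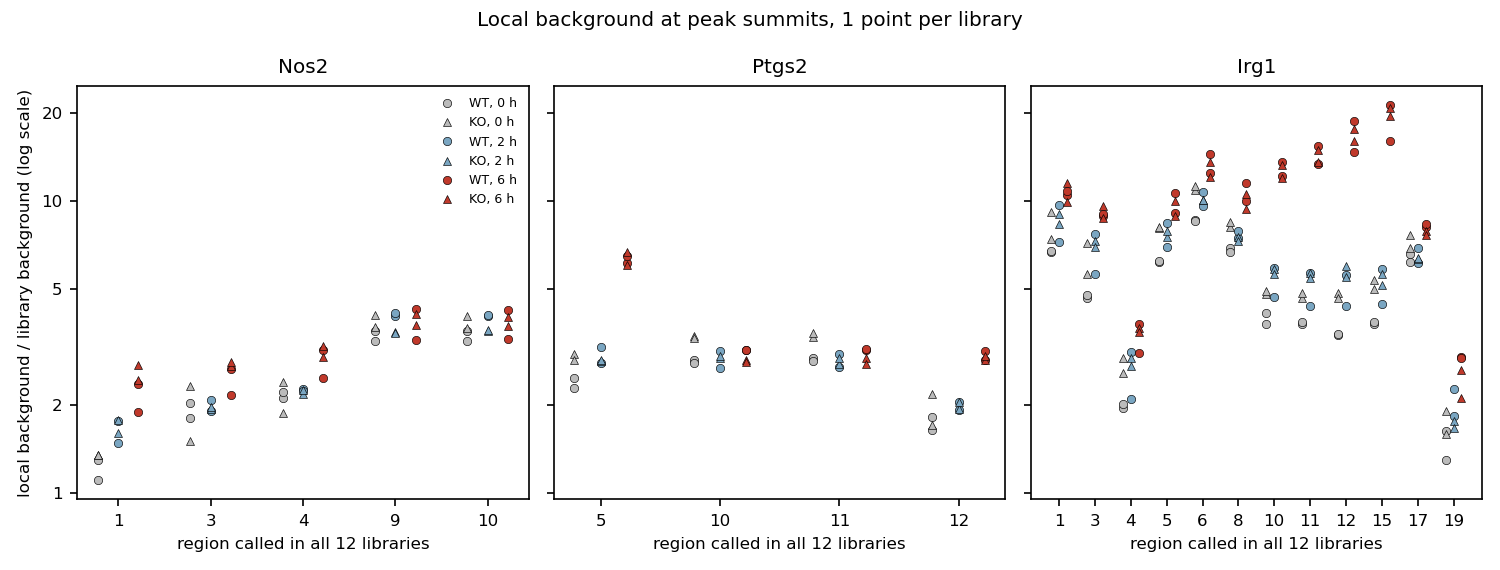
Local background at the summit over the library's background (log axis) for the 21 shared regions, with 1 point per library, circles for WT, triangles for KO and colour for hours of LPS. At Irg1 regions 10, 11, 12 and 15 and Ptgs2 region 5, all 4 points at 6 h stand above those at 0 h and 2 h.

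Of the 12 shared Irg1 regions, 11 rose in the rank of local background by 6 h and region 17 did not pass (exact adjusted p = 0.133). At Nos2, 2 of 5 rose (regions 1 and 4) and at Ptgs2 2 of 4 (regions 5 and 12). Over all shared regions 13.6% rose and 16.3% fell. Neighbouring Irg1 regions can share the reads counted, so the 11 rises are not 11 independent measurements. The percentile of region 15 went from 84.4 ± 4.79 to 99.98 ± 0.0130 (SD, n = 4; exact adjusted p = 0.00621). Some of the 11 had little room to rise, since regions 1, 5, 6 and 8 had mean percentiles of 97.6, 97.1, 99.5 and 97.9 at 0 h. The call was lost without 1 library at Irg1 region 4 (WT 0 h replicate 1), without either KO 6 h library at Irg1 region 1, and without any of 6 libraries at Nos2 region 4: WT 0 h replicates 1 and 2, KO 0 h replicate 1, KO 2 h replicate 2 and KO 6 h replicates 1 and 2.

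Inside that stretch, single peaks went different ways. Region 15, chr14:103457135-103459255, had the highest −log10 q of the Irg1 window in every library at 0 h and at 2 h, 92.4, 114, 86.6 and 89.5 and 120.2, 105, 101 and 118 (WT, then KO). At 6 h the values were 49.7, 35.6, 35.01 and 33.2, all below both earlier times. Its percentile by −log10 q fell from 98.9 ± 1.001 to 61.6 ± 12.7 (SD, n = 4; exact adjusted p = 0.0391), a call that held without KO 2 h replicate 2 and was lost without any of the other 11 libraries (adjusted p 0.0497 to 0.105 over the 12 omissions, exact test). Its summit coverage over the library's background had a mean of 66.01 ± 12.7 before LPS and 67.01 ± 6.67 after 6 h (SD, n = 4), a ratio of 1.02, and the percentile of coverage did not pass (98.2 and 99.6, exact adjusted p = 0.0742). Before LPS the fold over local background was 12.9, 14.1, 12.4 and 13.8, and after 6 h it was 4.07, 3.39, 2.94 and 3.33. The lower −log10 q at 6 h thus stood beside a similar mean summit coverage and a larger local background.

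Region 12, chr14:103450517-103451039, had a −log10 q of 34.9, 29.7, 36.4 and 18.4 at 0 h and 13.9, 8.86, 15.9 and 11.5 at 6 h (WT, then KO), and its percentiles of 58.8 ± 8.92 and 11.2 ± 4.97 (SD, n = 4) differed just short of the threshold (exact adjusted p = 0.0501). Its summit coverage rose from percentile 69.3 ± 6.80 to 87.2 ± 3.22 (SD, n = 4; exact adjusted p = 0.0106). Region 10, chr14:103445847-103447057, rose by both measures. Its −log10 q was 11.4, 8.36, 13.98 and 9.60 at 0 h, 24.4, 23.3, 36.3 and 26.3 at 2 h and 31.5, 44.2, 40.5 and 37.6 at 6 h, and its percentile by −log10 q rose from 14.9 ± 8.64 to 62.3 ± 8.59 (SD, n = 4; exact adjusted p = 0.0175). Summit coverage over the library's background in region 10 had a mean of 19.4 ± 4.37 before LPS and 53.5 ± 8.49 after 6 h (SD, n = 4), a ratio of 2.76 (exact adjusted p of its percentile = 0.0106). In region 11 the coverage percentile rose from 50.5 ± 13.04 to 91.7 ± 4.52 (SD, n = 4; exact adjusted p = 0.0106), while the percentile by −log10 q was 29.2 and 33.8 (exact adjusted p = 0.746).

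A further 3 Irg1 regions near these were called at 6 h alone, in too few libraries to count as gained. Region 13, chr14:103456034-103456485, was called in 3 libraries, region 14, chr14:103456605-103456942, in 2 and region 16, chr14:103464912-103465133, in 1. At regions 13 and 14 the summits held 91 to 137 reads, more than the 38 to 43 at the gained Nos2 region 8. Their folds were 1.69 to 1.91, over a local background of 48.9 to 71.3 reads. Without WT 6 h replicate 1, region 13 was gained. Region 7, chr14:103433296-103433670, was called in 8 of 8 libraries at 0 h and 2 h and in 2 of 4 at 6 h, where its local background was 14.1 and 11.8 times the library's. With each list kept to its 54771 strongest peaks, region 7 was lost by 6 h.

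Toward the end of the Irg1 window, region 19, chr14:103485954-103486793, had the widest change in percentile by −log10 q of the 21 shared regions, 64.2 points. Its −log10 q was 12.9, 15.2, 10.04 and 6.86 at 0 h, 31.9, 39.01, 29.3 and 23.04 at 2 h and 53.8, 54.1, 53.9 and 46.2 at 6 h (WT, then KO), with no overlap between times. The percentile by −log10 q was 14.2 ± 5.89 at 0 h, 45.9 ± 12.2 at 2 h and 78.4 ± 4.16 at 6 h (SD, n = 4; exact adjusted p = 0.0141 for 6 h and 0.839 for 2 h against 0 h). The percentiles at 2 h, 32.9 to 62.2, lay above those at 0 h, 8.25 to 22.1. The test of 2 h also exchanges the 6 h labels, so it cannot decide on a change by 2 h here. Summit coverage over the library's background had a mean of 11.7 ± 0.746 before LPS and 31.1 ± 4.84 after 6 h (SD, n = 4), a ratio of 2.66.

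Near the start of the window, region 3, chr14:103415058-103415604, rose from percentile 8.74 ± 5.80 to 39.9 ± 6.08 by −log10 q (SD, n = 4; exact adjusted p = 0.0204). Region 1, chr14:103411531-103412706, rose from 70.4 ± 6.22 to 79.99 ± 2.45 (SD, n = 4; exact adjusted p = 0.0380), a call lost without any of 9 libraries and kept without KO 0 h replicate 2, KO 2 h replicate 1 or KO 2 h replicate 2. Region 6, chr14:103432361-103433211, fell from 86.9 ± 1.20 to 74.5 ± 8.52 (SD, n = 4; exact adjusted p = 0.0480), a call lost without any of 10 libraries and kept without WT 6 h replicate 1 or KO 6 h replicate 2. The coverage percentiles of region 6 were 98.1 and 98.8 (exact adjusted p = 0.255). Ranked by fold instead of −log10 q, region 1 was lower at 6 h than at 0 h.

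The remaining shared Irg1 regions did not pass by −log10 q. The percentile of region 4 differed between 6 h and 0 h by -17.4 points (exact adjusted p = 0.192), that of region 5 by 13.6 (0.0552), that of region 8 by -5.45 (0.168) and that of region 17 by -6.42 (0.0716). Region 17, chr14:103468786-103470601, had a −log10 q of 71.2, 69.7, 64.7 and 52.02 at 6 h (WT, then KO), the highest of the window in both WT libraries but not in the KO libraries. Region 5, chr14:103428301-103429237, rose in summit coverage, from percentile 87.6 ± 5.77 to 97.9 ± 1.30 (SD, n = 4; exact adjusted p = 0.0138), a call lost without either KO 6 h library.

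**Figure D3:**
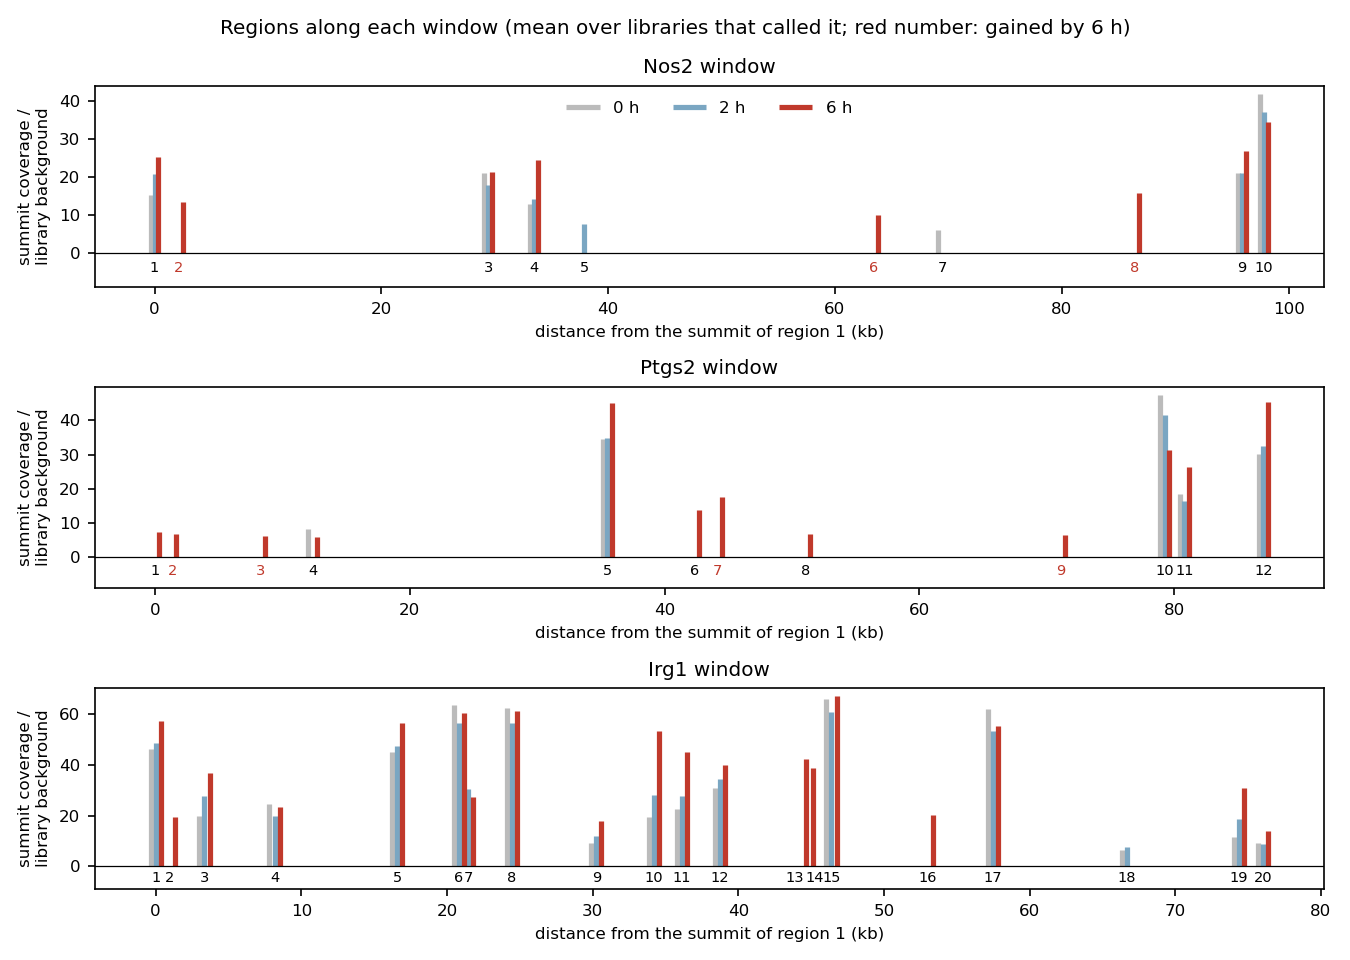
Positions of the 42 regions as distance in kb from the summit of region 1 of each window; bars give summit coverage over the library's background, as the mean over the libraries that called the region at 0, 2 and 6 h. Red numbers mark the 7 regions gained by 6 h, whose bars are lower than the tallest of their windows.

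Over the 21 shared regions, 6 rose and 3 fell in rank by −log10 q at 6 h, and 12 did not pass. Of the 3 falls, 2 were at Irg1, and no omission of 1 library kept both of them. Over all 42811 shared regions, 6.01% rose and 6.57% fell. By summit coverage 11 rose and 1 fell, against 8.98% and 10% of all shared regions. By local background 15 rose and 0 fell, against 13.6% and 16.3% of all shared regions. Of these, 11 were at Irg1, where neighbouring regions can share reads. At 2 h no shared region of the genome passed in any of the 3 measures (0%), and of the 21 regions 2, 1 and 0 had an unadjusted exact p under 0.05 by −log10 q (1 higher and 1 lower), local background (lower) and summit coverage. Over all shared regions, 3.91% were higher and 3.1% lower at that level by −log10 q, 4.03% and 3.69% by local background, and 4.03% and 3.21% by summit coverage. The permutation exchanges the labels of all 3 times, so the spread of the 6 h libraries enters the test of 2 h against 0 h. Where 6 h moved further the same way, that test cannot decide on a change by 2 h. At Irg1 regions 3, 10 and 19, all 4 percentiles by −log10 q at 2 h lay above all 4 at 0 h. Over all shared regions 3.72% lay wholly above and 3.04% wholly below, with no test. The ranks and their tests were added after the calls had been seen.

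**Figure D4:**
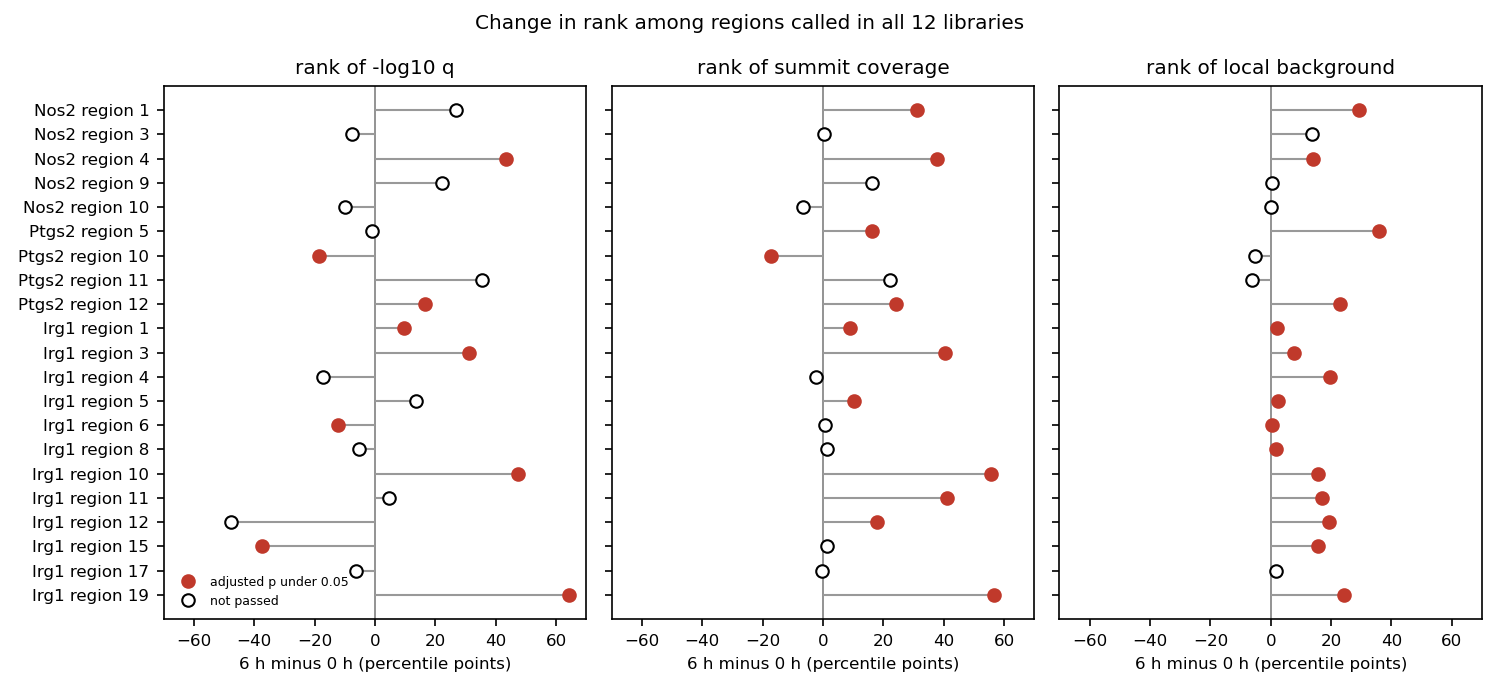
Difference in percentile between 6 h and 0 h for the 21 shared regions by −log10 q, summit coverage and local background; filled points passed the exact permutation test after adjustment over 42811 regions. Irg1 regions 12 and 15 lie left of 0 by −log10 q and right of 0 by local background.

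Counted by peaks, the Nos2 window held 6, 5, 5 and 5 at 0 h (WT, then KO), 5, 5, 6 and 6 at 2 h and 8 in each library at 6 h. The mean rose from 5.25 ± 0.5 to 8 ± 0 (SD, n = 4), a difference of 2.75 (exact permutation test over libraries, p = 0.00444). After adjustment over 13628 tiles of 100 kb and the 3 windows, the exact p was 0.0346. The Ptgs2 window held 5, 4, 5 and 4 at 0 h, 4 in each library at 2 h and 10, 10, 11 and 8 at 6 h, and rose from a mean of 4.5 ± 0.577 to 9.75 ± 1.26 (SD, n = 4; exact p = 0.00889, adjusted p = 0.0448). In the Irg1 window the means were 14.25 ± 0.957, 15 ± 0.816 and 15.5 ± 1.73 at 0, 2 and 6 h (SD, n = 4; exact p = 0.224, adjusted p = 0.369 at 6 h). The median tile gained 1.25 peaks by 6 h, and 84.6% of tiles had a higher mean number. So the rise at Nos2 and Ptgs2 shared its direction with most tiles. In size, it stood at percentile 85.8 of the tile differences at Nos2 and 98.8 at Ptgs2. At an adjusted exact p under 0.05, 20.9% of tiles rose and 0.0294% fell. The Nos2 and Ptgs2 windows, of 110 and 120 kb, are wider than a tile.

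Neither difference passed in equal or in thinned lists. With 54771 peaks per list no tile passed either, so that test cannot decide whether the Nos2 rise depends on list size. For Nos2 peaks in window, 6 h minus 0 h, the difference with 54771 peaks per list was 2.75 (exact adjusted p = 0.148, the smallest any tile reached there), and with thinned lists 2.5 (0.0690). For Ptgs2 peaks in window, 6 h minus 0 h, it was 0.75 (exact adjusted p = 0.644) and 3.5 (0.0792). Leaving out 1 library ended the Nos2 call for WT 0 h replicate 2, both KO 0 h libraries and both KO 2 h libraries (exact adjusted p 0.0375 to 0.0726 over the 12 omissions). It ended the Ptgs2 call for every library but KO 6 h replicate 2 (0.0495 to 0.102).

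The length covered by peaks did not overlap between times at Irg1, where their number did. It was 8295, 8478, 8099 and 7593 bp at 0 h (WT, then KO), 9607, 9578, 10527 and 10387 bp at 2 h and 11289, 11728, 12980 and 12034 bp at 6 h. For Irg1 peaks in window, 6 h minus 0 h, the difference in length of 3892 bp passed (exact permutation test, adjusted p = 0.00273). For Nos2 peaks in window, 6 h minus 0 h, it was 1720 bp (exact adjusted p = 0.00584), and for Ptgs2 peaks in window, 6 h minus 0 h, 2598 bp (0.00273). At an adjusted exact p under 0.05, covered length rose in 54% of tiles and fell in 0.0734%, so a rise in length was common in the genome. In size, the median tile gained 645 bp. The Nos2, Ptgs2 and Irg1 differences stood at percentiles 91.7, 98.6 and 99.8 of the tile differences, though the windows differ from a tile in width. With 54771 peaks per list the length differed by 1701, 1046 and 3201 bp at Nos2, Ptgs2 and Irg1 (exact adjusted p = 0.0118, 0.0101 and 0.00767), where 21.1% of tiles rose and 0.763% fell. With thinned lists it differed by 1648, 2101 and 3879 bp (exact adjusted p = 0.00778, 0.00366 and 0.00366), where 47.7% rose and 0.183% fell. Each peak kept in these lists has its deposited width, so they do not level differences in peak width. The lengths in equal and thinned lists were added after the data were seen. Irg1 region 15 spanned 2121 bp when chained over libraries, the widest of the 42. At 2 h the length covered in the Irg1 window exceeded that at 0 h by 1908.5 bp, which did not pass (exact adjusted p = 0.363). It did not pass in equal or thinned lists either (exact adjusted p = 0.475 and 0.455). The smallest adjusted p that any tile or window reached for length at 2 h in the deposited lists was 0.164. At 2 h the number of peaks differed from 0 h by 0.25, -0.5 and 0.75 in the Nos2, Ptgs2 and Irg1 windows, with exact adjusted p of 1 in each, and 0% of tiles passed.

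**Figure D5:**
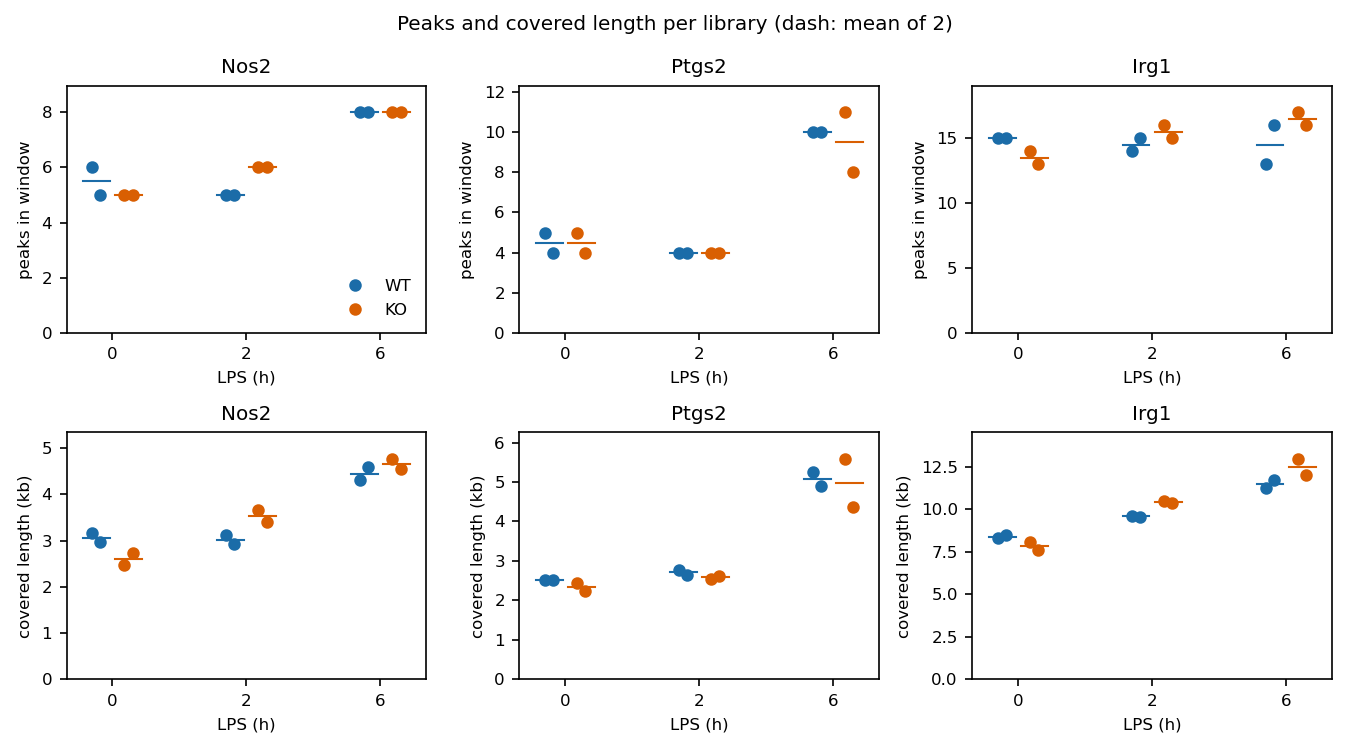
Peaks (top) and covered length in kb (bottom) per library in the 3 windows by hours of LPS, with a point per library, a dash for the mean of 2 and colour for genotype. Peak number at 6 h lies above all earlier libraries at Nos2 and Ptgs2 but not at Irg1, where covered length does.

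Loss of lincRNA-EPS was set against WT at each time. None of the 42 regions was called in all 6 libraries of 1 genotype and none of the other, with 0.0104% over all regions. At 2 h, 2 regions were called in 2 of 2 KO and 0 of 2 WT libraries, a pattern that 1.22% of all regions had. They were Nos2 region 5, chr11:78738367-78738835, with folds of 4.94 and 4.29 and in no library of another group, and Irg1 region 20, chr14:103487797-103488245, with folds of 3.89 and 5.03. Both WT libraries called Irg1 region 20 at 6 h, with folds of 4.50 and 4.42. At 6 h, Irg1 regions 2 and 14 were called in 2 of 2 KO libraries and in no WT library, with folds of 2.21 and 2.41 and of 1.69 and 1.84, against 1.91% of all regions. At 0 h no member showed the KO-only pattern (0.505% of all regions). The WT-only pattern was seen in no member at 0, 2 or 6 h, with shares over all regions of 2.45%, 1.34% and 1.2%. The background coverage of the KO libraries was 2.79 and 3.04 reads at 2 h, against 3.03 and 2.32 in WT, and 3.35 and 2.17 at 6 h, against 2.67 and 2.18; its part in these 4 calls was not tested.

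Counted within each genotype, WT had 9 regions that both libraries listed at 6 h and neither at 0 h, and KO had 10; the 7 gained regions are among both by the rule. Over all regions of the genome, 9.89% had that pattern in WT and 12.5% in KO. The number of peaks differed between KO and WT by 0.167, -0.167 and 0.5 in the Nos2, Ptgs2 and Irg1 windows (exact adjusted p = 1 in each), and 0% of tiles passed. In rank, 0 of the 21 shared regions and 0% of all shared regions passed between genotypes by the exact permutation test. By −log10 q, 2 of the 21 had an unadjusted exact p under 0.05, 1 higher and 1 lower in KO, against 3.16% higher and 3.2% lower over all shared regions. The differences ranged from -9.20 to 12.9 points, with the lowest adjusted p at 0.697. By local background, 9 of the 21 had an unadjusted exact p under 0.05, all higher in KO, 8 of them at Irg1, where neighbouring regions can share reads. Over all shared regions 4.54% were higher and 3.85% lower at that level. At Irg1 region 15 the local background percentile was 89.6 ± 9.11 in WT and 93.8 ± 5.32 in KO (SD, n = 6; exact p = 0.00926, the smallest this test can give, adjusted p = 0.419). By summit coverage 6 of 21 had an unadjusted exact p under 0.05, all higher in KO, with the lowest adjusted p at 0.593. Over all shared regions 3.7% were higher and 3.38% lower at that level. Adjusted over 42811 regions, a p of 0.00926 can pass only where a large share of all regions reaches it. The same holds for the tiles, so the 0% that passed says little. With 6 libraries a genotype, these tests do not show that the genotypes were the same.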

How the data were processed

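Each of the 12 libraries was deposited as 1 narrowPeak list, called per library on mm9; the submitters' processing notes name Bowtie2 2.1.0, Picard and MACS2, with no further settings given in the sources used here. The lists have no header, and columns were read by the narrowPeak convention: the deposited fold is a linear ratio of summit coverage to local background, which the values match with 1 added to both terms, and the deposited p-value and q-value are given as −log10. The summit offset gave positions, and the deposited score column was not used. Sequencing depth is not in the lists. Both p and fold were inverted as Poisson to recover reads at the summit and local background.

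Peaks sharing 1 bp were chained. Differences between times were tested by exact two-sided permutation of time labels within genotype (8100 arrangements, smallest p 0.000247), and between genotypes within time (216 arrangements, smallest p 0.00926), with Benjamini-Hochberg adjustment over tiles with a mean of at least 1 peak or over shared regions, at 0.05. The test was also run on simulated counts, of which no outcome is given here, and no result rests on that run. Python 3.11.15, numpy 2.4.6, pandas 2.3.3 and scipy 1.17.1 were used. Described with values were all gained, lost, genotype-skewed and shared regions. Members, windows and tests were chosen with earlier results of these data known. Alternatives were a replicate block, covered length, equal and thinned lists, a −log10 q of at least 5, no tile filter, a peak covering 50% of its region, ranks by fold, depth-scaled values and each library left out. Same-numbered replicates did not deviate together, with 15 correlations of -0.052 to 0.075.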

Additional observations from a re-analysis of the deposited data

Results flagged for a closer look

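At Nos2 region 9, WT and KO moved in opposite directions between 0 h and 2 h in percentile by −log10 q among shared regions. In WT the 2 libraries at 0 h stood at 23.8 and 12.6 and those at 2 h at 39.0 and 29.7. In KO they stood at 41.4 and 36.3 at 0 h and at 28.3 and 21.3 at 2 h. The KO change minus the WT change was -30.15 points. The region was picked for this difference, which rests on 2 libraries a group and was not tested.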

How the results depend on the processing

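Of the alternatives to results that answer a comparison, 1086 kept direction and side of the threshold or moved within the allowed range, 42 moved, 23 were weaker, 3 were stronger and 22 were reversed. For single regions 749 kept, 57 were weaker, 12 stronger and 22 reversed. Replicate numbers did not pair the libraries. With the replicate number as a block, Nos2 peaks in window, 6 h minus 0 h, were 2.75 (exact adjusted p = 0.0704) and Ptgs2 peaks in window, 6 h minus 0 h, 5.25 (0.0915), where the smallest any tile reached was 0.0570. In the block, the shared regions lower by −log10 q were 0 at Ptgs2 and 0 at Irg1, and 1 at Irg1 was higher; 1 at Nos2 was higher by local background and 0 at Ptgs2 lower by summit coverage. By covered length, Irg1 peaks in window, 6 h minus 0 h, gave 3892 bp and Ptgs2 peaks in window, 2 h minus 0 h, +219 bp. Added after the data were seen, covered length in equal lists gave 3201 bp for Irg1 at 6 h, 269 for Ptgs2 at 2 h and 327 for Ptgs2, KO minus WT. In thinned lists these were 3879, 219 and 48.5 bp, with -31.8 bp for Nos2, KO minus WT. With equal lists, Nos2 peaks in window, 6 h minus 0 h, were 2.75, Ptgs2 peaks in window, 6 h minus 0 h, 0.75, Irg1 peaks in window, 6 h minus 0 h, -1 and Ptgs2 peaks in window, KO minus WT, 0.833, with 0 Ptgs2 regions gained and 1 Irg1 region lost. With thinned lists they were 2.5 at Nos2 and 3.5 at Ptgs2 for 6 h, and -0.167 and 0.333 for KO minus WT, with 2 Ptgs2 regions gained. With a −log10 q of at least 5, Ptgs2 peaks in window, KO minus WT, were 0.333. With no filter on tiles, Ptgs2 peaks in window, 6 h minus 0 h, stayed at 5.25 (exact adjusted p = 0.0501). With only peaks counted that cover 50% of a region, 1 Irg1 region was gained (region 10). With rank by fold, 2 regions at Ptgs2 were lower, 2 at Irg1 higher and 6 at Irg1 lower. There, Irg1 region 1 rank of -log10 q, 6 h minus 0 h, became -6.09, Irg1 region 5 rank of -log10 q, 6 h minus 0 h, -1.72 and Irg1 region 11 rank of -log10 q, 6 h minus 0 h, -10.1. With depth-scaled log2 values of summit coverage, 1 Ptgs2 and 4 Irg1 regions were higher. The cause of these changes was not tested.

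Leaving out 1 library at a time, the 6 h difference was 2.67 to 3 peaks at Nos2 and 4.83 to 5.83 at Ptgs2, and KO minus WT was -0.167 to 0.533 at Nos2 and -1.17 to 0.6 at Ptgs2. At Irg1 the 6 h difference was 0.75 to 2.08 peaks (lowest without KO 6 h replicate 1, highest without WT 6 h replicate 1; exact adjusted p 0.0575 to 0.620). There KO minus WT was 0.133 to 0.933 (lowest without KO 6 h replicate 1, highest without KO 0 h replicate 2; exact adjusted p = 1 in each). Irg1 regions gained were 0 to 1 by 6 h (region 13 without WT 6 h replicate 1) and 0 to 1 by 2 h (region 9 without WT 0 h replicate 2). By −log10 q, higher regions at Nos2 were 1 to 2, lower ones at Ptgs2 0 to 1 and at Irg1 0 to 1. With all libraries, 2 were lower at Irg1, so no omission gave that count. Higher regions at Nos2 were 1 to 3 by local background and 1 to 2 by summit coverage, and lower ones by summit coverage 0 to 1 at Nos2 and 0 to 1 at Ptgs2. Differences in percentile that crossed 0 were, by −log10 q, -2.35 to 0.768 at Ptgs2 region 5 and -1.99 to 10.1 at Irg1 region 11; by local background, -0.250 to 2.19 at Nos2 region 9 and -0.603 to 1.64 at Nos2 region 10; and by summit coverage, -3.47 to 6.56 at Nos2 region 3, -5.35 to 0.332 at Irg1 region 4 and -0.835 to 0.357 at Irg1 region 17. A region without a peak has no value here, so depth limits every comparison of calls.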
